A study of Mus musculus with 10 samples.

Results

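Laminins and integrins are the 2 sides of the contact between a cell and its basement membrane. The genes were taken by symbol, as every protein-coding gene named *Lama*, *Lamb* or *Lamc* for the laminin chains and *Itga* or *Itgb* for the integrin subunits. This gave 37 of the 54532 genes measured, of which 11 encode laminin chains (5 α, 3 β and 3 γ) and 26 encode integrin subunits (18 α and 8 β). The genes were measured by RNA-seq in heart tissue of mice that carry a *Rit1* M90I/+ allele, a pathogenic variant of a small guanosine triphosphatase that activates MAPK signaling and is associated with Noonan syndrome. The vehicle group held 5 hearts (vehicle hearts 1 to 5), and the MEKi group held 5 hearts of mice dosed with trametinib, an inhibitor of the kinases MEK1 and MEK2, at 1 mg/kg once a day (MEKi hearts 1 to 5). Dosing began at 4 weeks of age and lasted 20 weeks. All 10 animals carried the mutant allele, which a ubiquitous cytomegalovirus-Cre deleter cross had activated, and no wild-type heart was analysed here. The comparison asks which laminin and integrin transcripts differed after prolonged MEK inhibition in hearts with overactive MAPK signaling.

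A laminin is a cross-shaped protein built from an α, a β and a γ chain, and together with type IV collagen, nidogens and perlecan it forms the sheet that surrounds each cardiomyocyte and underlies the vessel wall. Integrins are αβ dimers in the plasma membrane that bind laminin, collagen, fibronectin or counter-receptors on other cells, and couple them to the actin cytoskeleton. In cardiac muscle they transmit force between the sarcomere and the matrix, and other integrins serve the adhesion of leukocytes and platelets.

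Levels are given as FPKM, which counts the sequenced fragments of a gene relative to its length and to a library size set for each heart. Each heart yielded between 13647167 and 18474002 fragments, of which mitochondrial genes took from 24.0 to 35.0%. The library size implied by the FPKM was not the fragment total. It was 14218190 against 15371692 fragments in vehicle heart 3, and 14416591 against 13647167 in vehicle heart 2. Of the 37 genes, 27 averaged 0.5 FPKM or more across the hearts and entered the test. These were 8 of 11 laminin chains and 19 of 26 integrin subunits. The other 10, *Lama1*, *Lama3*, *Lamc3*, *Itga2*, *Itga4*, *Itga10*, *Itgad*, *Itgae*, *Itgax* and *Itgb8*, are described separately. Some hearts stood apart. The summed FPKM of 6 atrial markers was between 423 and 898 in vehicle hearts 4 and 5 and MEKi heart 2, but between 13.7 and 59.0 in the other 7 hearts. The 6 cardiomyocyte markers were abundant in every heart, summing to 9858 FPKM or more. *Xist*, which is transcribed from the inactive X chromosome of females, was between 5.16 and 6.85 FPKM in MEKi hearts, while no vehicle heart exceeded 0.00662 FPKM. The Y-linked gene *Ddx3y* was between 10.3 and 12.2 FPKM in vehicle hearts and at 0 in every MEKi heart. Treatment and sex-linked transcripts divided the hearts identically, so their parts in any difference described here cannot be told apart.

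No laminin or integrin gene passed an adjusted p of 0.05 between MEKi and vehicle hearts (0 of 27; limma on log2(FPKM + 0.1), Benjamini-Hochberg adjustment over all 12602 genes tested; also 0 by voom on recovered fragments). Over all genes, 0.0794% passed (10 genes). At an unadjusted p under 0.05 there were 2 members, *Itgam* with a lower and *Lamb3* with a higher mean in MEKi hearts, and this count ran from 0 (without vehicle heart 5) to 6 (without vehicle heart 1) with a heart left out. Among all genes, 7.62% (960) had such a p in the fit to all hearts, 3.94% with a lower and 3.67% with a higher mean. The share of all genes with a heart left out is not given here. The fitted difference was negative for 16 and positive for 11 of the 27 members, with a median log2 fold change (log2FC, MEKi minus vehicle) of −0.07 beside 0.01 over all genes tested. This median was 0.0152 without MEKi heart 5 and 0.00225 on a TPM scale. The 95% interval of the difference, not adjusted for the number of genes, lay within a 1.5-fold change in either direction for 15 members and within a 2-fold change for 22. The 5 members with wider intervals, *Itga2b*, *Itgal*, *Itgam*, *Itgb3* and *Itgb7*, are integrins of blood cells.

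**Figure D1:**
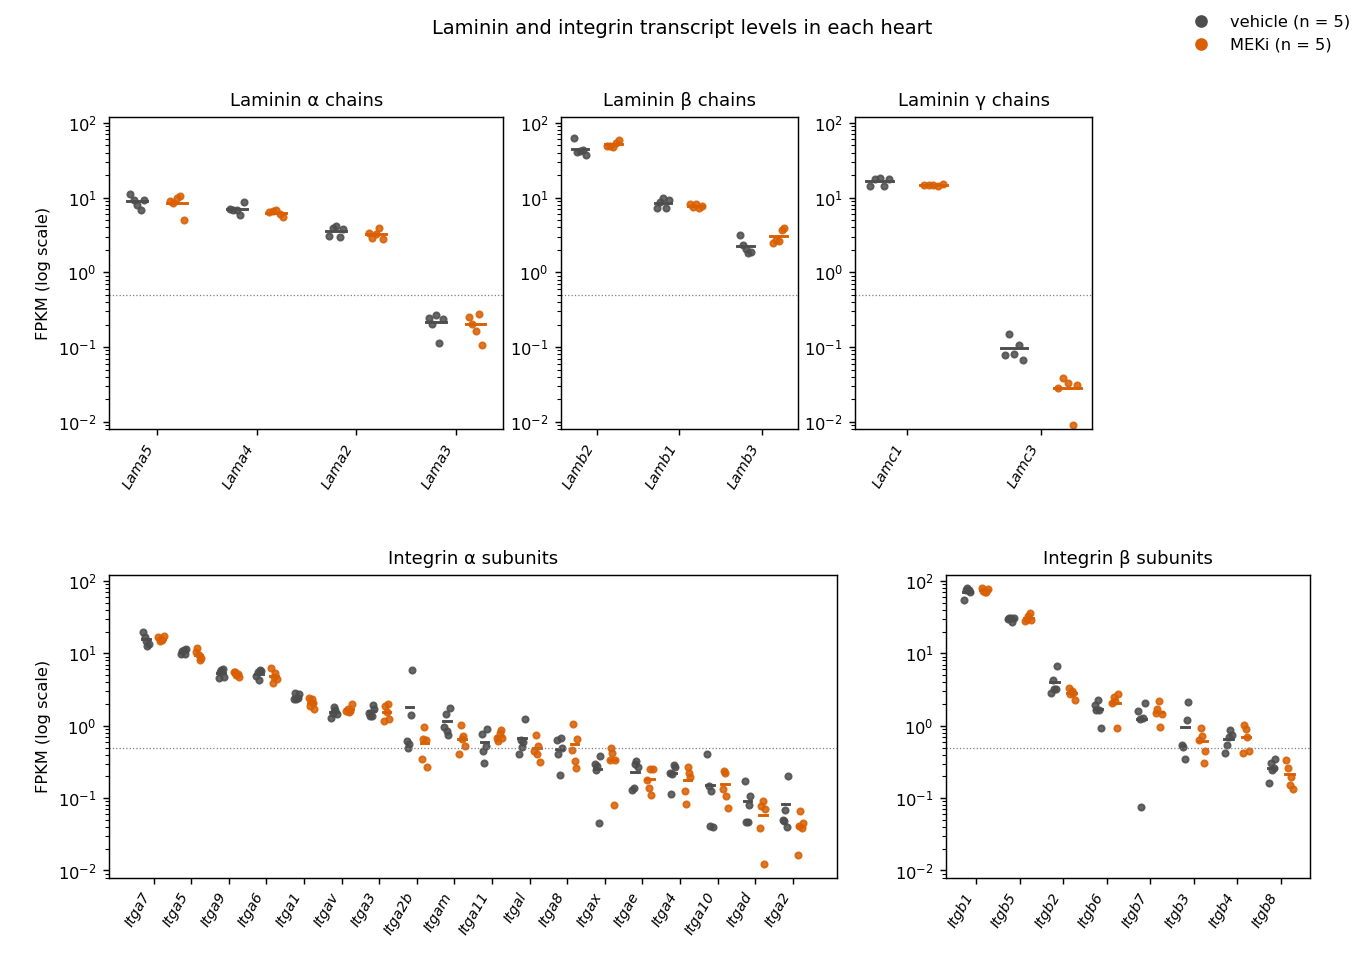
FPKM of 35 of the 37 laminin and integrin genes in each heart (log scale), with vehicle hearts in grey, MEKi hearts in orange and a bar at each group mean. *Lama1*, read in 1 heart only, is among those left out, and the dotted line marks the 0.5 FPKM needed to enter the test. The groups lie over each other in nearly every gene, and *Lamc3*, below the line, is the gene whose groups separate.

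**Figure D2:**
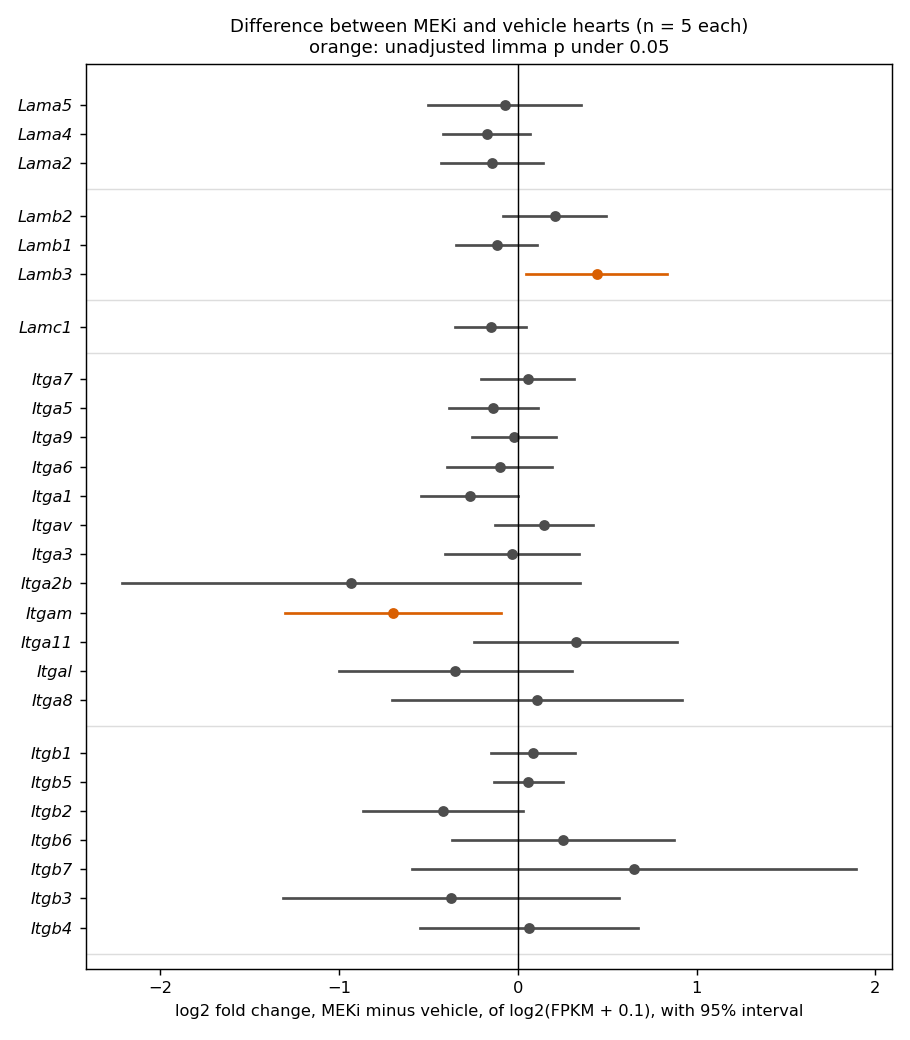
Log2 fold change of 26 of the 27 tested genes (MEKi minus vehicle, on log2(FPKM + 0.1)) with its unadjusted 95% interval, by family and in order of level. The intervals of *Itgam* and *Lamb3* alone exclude 0, those of abundant chains are narrow, and those of *Itga2b* and *Itgb7* are the widest.

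Of the laminin α chains, which carry the sites for cell receptors, *Lama5*, *Lama4* and *Lama2* made up nearly all transcripts. *Lama5* (chromosome 2, 180176373 to 180225859, minus strand; GRCm38 here and throughout) encodes a chain of endothelial and epithelial basement membranes. It was at 11.3, 9.19, 7.97, 6.79 and 9.22 FPKM in vehicle hearts 1 to 5 and at 9.11, 8.40, 9.97, 10.4 and 5.02 FPKM in MEKi hearts 1 to 5. The lowest and the highest of the 10 values differed by more than the group means, which were 8.90 ± 1.69 and 8.58 ± 2.14 FPKM (SD, n = 5 each). Its log2FC was −0.07 (SE 0.20, limma adjusted p = 0.955) and changed sign on a TPM scale, with array weights and without vehicle heart 1 or MEKi heart 5. MEKi heart 5, with the lowest *Lama5*, also had the lowest *Lama4* and *Lama2*. The endothelial marker sum of MEKi heart 5 was 144 FPKM, against 175 to 183 in the other MEKi hearts and 140 to 227 in vehicle hearts. Its cardiomyocyte marker sum, 9858 FPKM, was the lowest of the 10 hearts. Vehicle heart 3 had the lowest endothelial sum, 140 FPKM, and the highest *Lama2*, 4.18 FPKM. Whether endothelial or cardiomyocyte content had a part in these values was not tested.

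*Lama4* (chromosome 10, 38965515 to 39110188, plus strand) encodes the other main chain of vessel walls. It was at 7.06, 6.86, 6.81, 5.92 and 8.83 FPKM in vehicle hearts and at 6.35, 6.58, 6.75, 6.06 and 5.45 FPKM in MEKi hearts. Vehicle hearts 1, 2, 3 and 5 exceeded every MEKi heart, but vehicle heart 4 exceeded MEKi heart 5 alone. The log2FC was −0.17 (SE 0.11, limma adjusted p = 0.757), with an interval of the fold from 0.75 to 1.05. *Lama2* (chromosome 10, 26980036 to 27619758, minus strand) encodes the chain of the muscle fiber's own basement membrane, and its loss causes a congenital muscular dystrophy. Its values were 3.09, 3.98, 4.18, 2.98 and 3.85 FPKM in vehicle hearts and 3.36, 2.87, 3.30, 3.95 and 2.80 FPKM in MEKi hearts. They overlapped over most of their range (log2FC −0.14, SE 0.13, limma adjusted p = 0.824).

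Within a heart, *Lama5* exceeded *Lama4* in 9 of 10 hearts, the exception being MEKi heart 5, and *Lama4* exceeded *Lama2* in all 10. *Lama5* took 44.7% ± 4.46 of summed α-chain FPKM in vehicle hearts and 46.3% ± 5.10 in MEKi hearts (SD, n = 5 each). *Lama2* took 18.4% ± 2.80 and 18.0% ± 2.04. The gene lengths behind these levels join all annotated exons of a gene (16338 bases for *Lama2*, 11388 for *Lama5*), and a gene with exons that the heart does not use appears lower than it is. *Lama3*, an epithelial chain, was between 0.107 and 0.281 FPKM. *Lama1*, a chain of embryonic membranes, had 6 fragments in vehicle heart 5 and none elsewhere.

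Of the laminin β chains, *Lamb2* (chromosome 9, 108479736 to 108490530, plus strand), the β chain of mature muscle and its neuromuscular junction, was the most abundant laminin transcript. Its values were 62.3, 41.2, 41.7, 43.4 and 37.3 FPKM in vehicle hearts and 49.1, 48.4, 47.1, 53.9 and 58.5 FPKM in MEKi hearts. All 5 MEKi hearts lay above vehicle hearts 2 to 5, while vehicle heart 1 was the highest of the 10. The means were 45.2 ± 9.83 and 51.4 ± 4.72 FPKM (SD, n = 5 each), a log2FC of 0.20 (SE 0.13, limma adjusted p = 0.757). Without vehicle heart 1 the log2FC was 0.33, with a limma adjusted p of 0.316, the lowest that any member had under any alternative.

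*Lamb1* (chromosome 12, 31265234 to 31329644, plus strand), the widespread β chain of vessels and of the embryo, was at 7.33, 8.65, 9.90, 7.35 and 9.28 FPKM in vehicle hearts and at 8.12, 7.53, 8.18, 7.17 and 7.84 FPKM in MEKi hearts. The MEKi hearts spread over a narrower range, below vehicle hearts 2, 3 and 5 (log2FC −0.12, SE 0.10, limma adjusted p = 0.820). *Lamb2* exceeded *Lamb1* in every heart, by 4.03-fold to 8.50-fold. *Lamb1* took 15.6% ± 3.70 of β-chain FPKM in vehicle hearts and 12.6% ± 1.40 in MEKi hearts (SD, n = 5 each), and these shares overlapped.

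*Lamb3* (chromosome 1, 193207699 to 193343878, plus strand) encodes the β chain of the epithelial laminin that anchors skin to the dermis. It was at 3.17, 2.32, 2.03, 1.84 and 1.85 FPKM in vehicle hearts and at 2.44, 2.69, 2.62, 3.69 and 3.93 FPKM in MEKi hearts. As with *Lamb2*, all MEKi hearts exceeded vehicle hearts 2 to 5, and vehicle heart 1 lay among the MEKi values. The means were 2.24 ± 0.556 and 3.07 ± 0.684 FPKM (SD, n = 5 each), a log2FC of 0.44 (SE 0.18) with an unadjusted p of 0.0318 and an adjusted p of 0.606 in limma. Its unadjusted p was above 0.05 without vehicle heart 3, 4 or 5 or MEKi heart 4 or 5, and without the 3 hearts of high atrial transcripts. The annotated span of *Lamb3* contains *Hsd11b1* on the other strand, the cortisol-activating enzyme and 1 of the 10 genes that passed over all genes. *Hsd11b1* was at 5.24 ± 0.652 FPKM in vehicle hearts and fell to 2.36 ± 0.515 FPKM in MEKi hearts (SD, n = 5 each; log2FC −1.14, SE 0.16, limma adjusted p = 0.0181), and shares no annotated exon bases with *Lamb3*. In a fit that omitted genes of the X, Y and mitochondrial chromosomes *Hsd11b1* no longer passed, and 0 genes did. The span also contains *G0s2* on the other strand (log2FC −0.09, limma adjusted p = 0.925). *Gm37691* lies in it on the strand of *Lamb3* (log2FC 0.10, limma adjusted p = 0.934). The RefSeq promoter windows of *Lamb3* begin at 193301744 and 193301993, inside the annotated span and downstream of all these genes.

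Of the laminin γ chains, *Lamc1* (chromosome 1, 153218922 to 153332786, minus strand), the γ chain of most laminins, made up over 89% of the FPKM in every heart. It was at 14.5, 17.9, 18.1, 14.4 and 17.5 FPKM in vehicle hearts and at 14.6, 14.7, 14.9, 14.5 and 15.1 FPKM in MEKi hearts. Vehicle hearts fell into high values (hearts 2, 3 and 5) and low values (hearts 1 and 4), and the MEKi hearts lay close to the low ones. The SD was 1.86 FPKM in vehicle and 0.237 FPKM in MEKi hearts, and the log2FC was −0.15 (SE 0.09, limma adjusted p = 0.727).

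*Lamc3* (chromosome 2, 31887291 to 31946539, plus strand) encodes a minor γ chain. It was at 0.0781, 0.148, 0.0808, 0.106 and 0.0677 FPKM in vehicle hearts and at 0.0287, 0.0383, 0.0335, 0.00918 and 0.0313 FPKM in MEKi hearts. All 5 MEKi hearts were below all 5 vehicle hearts. No other member had groups that did not overlap, and 1.12% of the 24630 genes above 0 in any heart did (0.601% with MEKi below and 0.516% with MEKi above vehicle). These values rest on 43 fragments over the vehicle hearts and 14 over the MEKi hearts, with from 1 to 13 in a single heart. *Lamc3* was too low for the main test. In a fit over all genes above 0, its log2FC was −0.60 (SE 0.16) with an unadjusted p of 0.00364 and an adjusted p of 0.587 in limma, where 5.78% of the genes had an unadjusted p under 0.05 and 0.0447% (11 genes) passed the adjusted threshold.

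**Figure D3:**
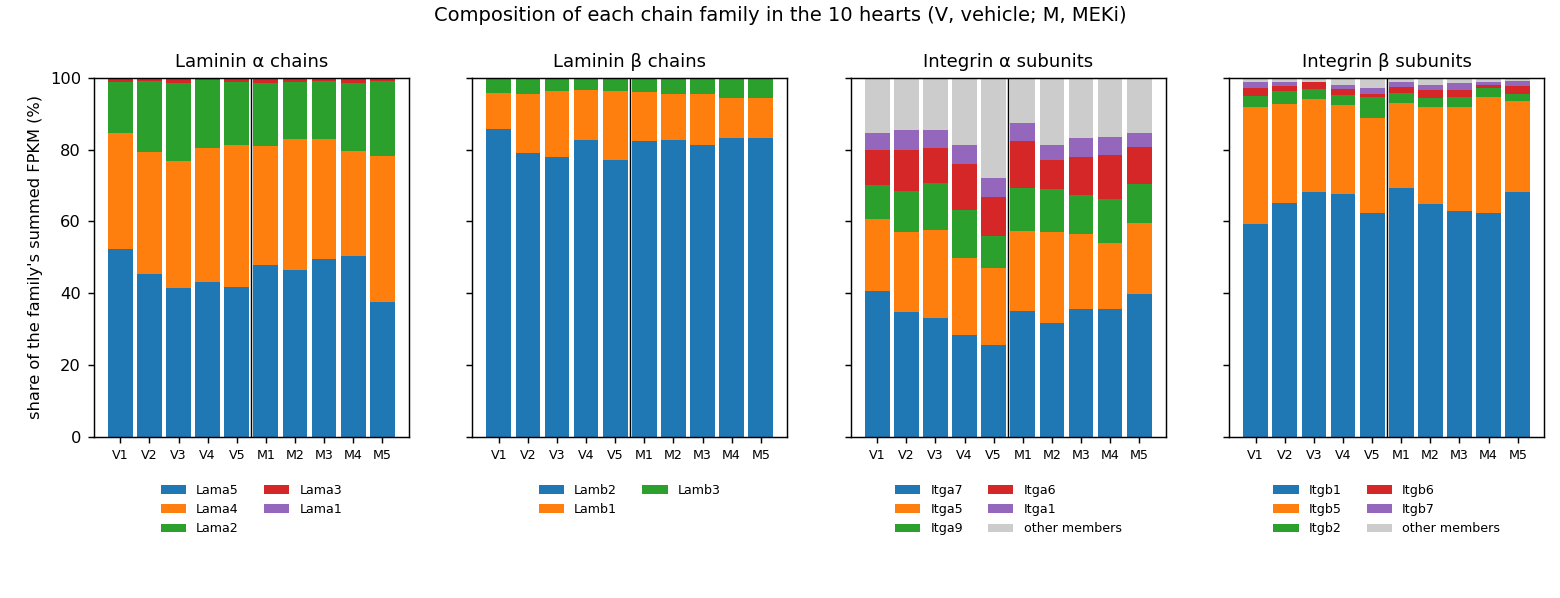
Share of each gene in the summed FPKM of the laminin α, laminin β, integrin α and integrin β families, in percent, for each vehicle (V1 to V5) and MEKi (M1 to M5) heart. *Lamb2* and *Itgb1* take most of their families in every heart, *Lama5*, *Lama4* and *Lama2* share theirs, and vehicle heart 5 has the largest grey segment of the integrin α subunits.

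The integrin α subunits decide which ligand a dimer binds. Those that bind laminin are *Itga3*, *Itga6* and *Itga7*, and all 3 passed the filter, with 0 past an unadjusted p of 0.05. *Itga7* (chromosome 10, 128933818 to 128958282, plus strand), the laminin receptor of mature muscle, was the most abundant α subunit in every heart. It was at 19.8, 16.9, 14.8, 12.8 and 13.4 FPKM in vehicle hearts and at 16.6, 14.8, 16.0, 15.2 and 17.2 FPKM in MEKi hearts. All MEKi values lay inside the vehicle range, with vehicle heart 1 at its top (log2FC 0.05, SE 0.12, limma adjusted p = 0.945). The interval of the *Itga7* fold ran from 0.87 to 1.24. *Itga6*, found on endothelium and many other cells, averaged 5.26 ± 0.648 FPKM in vehicle and 4.92 ± 0.891 FPKM in MEKi hearts, and *Itga7* exceeded it by 2.17-fold to 4.08-fold within a heart. *Itga3* was between 1.18 and 1.98 FPKM, with the ranges of the groups overlapping.

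The α subunits that bind the RGD sequence of fibronectin and related proteins are *Itga5*, *Itgav*, *Itga8* and *Itga2b*. *Itga5* (chromosome 15, 103344286 to 103366763, minus strand), the main fibronectin receptor, ranked next to *Itga7* in all 10 hearts. Its values were 9.76, 10.9, 11.0, 9.67 and 11.3 FPKM in vehicle hearts and 10.6, 11.7, 9.43, 7.97 and 8.51 FPKM in MEKi hearts. MEKi hearts 3 to 5 were below every vehicle heart, and MEKi heart 2 was above every one (log2FC −0.14, SE 0.11, limma adjusted p = 0.814). *Itgav* was at 1.53 ± 0.193 FPKM in vehicle and 1.70 ± 0.182 FPKM in MEKi hearts (SD, n = 5 each), and *Itga8* varied among hearts from 0.210 to 1.07 FPKM, with no order by group.

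*Itga9* (chromosome 9, 118606690 to 118901003, plus strand), which binds tenascin and vascular cell adhesion molecules, was at 4.51, 5.58, 5.83, 6.02 and 4.66 FPKM in vehicle hearts and at 5.61, 5.58, 4.98, 5.23 and 4.66 FPKM in MEKi hearts. The MEKi values again fell within the vehicle range (log2FC −0.02, SE 0.11, limma adjusted p = 0.970). *Itga9* and *Itga6* had nearly equal levels and exchanged rank in 4 of 10 hearts. Of the collagen receptors, *Itga1* and *Itga11* passed the filter. *Itga1*, on smooth muscle and capillaries, was between 2.32 and 2.83 FPKM in vehicle hearts and between 1.70 and 2.41 FPKM in MEKi hearts, with a log2FC of −0.27 (SE 0.12, unadjusted p = 0.0501, adjusted p = 0.652 in limma). Its fitted difference was negative under every alternative, from −0.32 to −0.19. *Itga11*, a fibroblast collagen receptor, had a log2FC of 0.32 (SE 0.26, limma adjusted p = 0.812).

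The laminin, collagen and tenascin receptors above, and *Itga5*, *Itgav* and *Itga8*, can pair with *Itgb1*. *Itgb1* (chromosome 8, 128685654 to 128733200, plus strand) was the most abundant of the 37 transcripts. It was at 54.1, 74.0, 79.6, 75.3 and 71.3 FPKM in vehicle hearts and at 80.8, 72.6, 71.6, 69.7 and 78.4 FPKM in MEKi hearts. Vehicle heart 1 was the lowest by a wide margin, and the other 9 hearts lay between 69.7 and 80.8 FPKM. The log2FC was 0.08 (SE 0.11, limma adjusted p = 0.895), and the interval of the fold ran from 0.90 to 1.25. *Itgb1* alone exceeded the summed FPKM of all 18 α subunits in every heart, by 1.11-fold in vehicle heart 1 and by up to 1.82-fold.

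*Itgb5* (chromosome 16, 33829665 to 33949338, plus strand), which pairs with *Itgav* in a vitronectin receptor, was at 29.7, 31.1, 30.6, 27.5 and 30.5 FPKM in vehicle hearts and at 27.8, 30.0, 32.9, 36.1 and 29.2 FPKM in MEKi hearts. These values overlapped, and had the smallest SE of any member (log2FC 0.06, SE 0.09, limma adjusted p = 0.914). The level of *Itgb5* was far above that of *Itgav*, its only known α partner. *Itgb6*, another partner of *Itgav*, was between 0.936 and 2.72 FPKM. *Itgb4*, the epithelial partner of *Itga6*, was between 0.415 and 1.04 FPKM. *Itgb8* was at most 0.342 FPKM. None of these 3 had an unadjusted p under 0.05 in the fit that it entered.

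Several integrins of blood cells varied widely between hearts. *Itgb2* is the common β subunit of the leukocyte integrins, and *Itgal*, *Itgam*, *Itgax* and *Itgad* are its α partners. *Itgb2* (chromosome 10, 77530252 to 77565708, plus strand) was at 2.84, 4.25, 3.20, 3.18 and 6.60 FPKM in vehicle hearts and at 3.33, 2.79, 3.01, 2.84 and 2.29 FPKM in MEKi hearts. Vehicle hearts 2 and 5 were above all others and MEKi heart 5 was the lowest. The log2FC was −0.42 (SE 0.21, limma adjusted p = 0.664), and −0.23 without vehicle heart 5 (limma adjusted p = 0.814).

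*Itgam* (chromosome 7, 128062640 to 128118491, plus strand), which encodes CD11b of macrophages and neutrophils, was at 0.946, 1.46, 0.840, 0.743 and 1.78 FPKM in vehicle hearts and at 0.406, 1.01, 0.650, 0.723 and 0.519 FPKM in MEKi hearts. Vehicle hearts 2 and 5 were again the highest, and 4 of 5 MEKi hearts were below every vehicle heart. The means were 1.15 ± 0.446 and 0.662 ± 0.229 FPKM (SD, n = 5 each), a log2FC of −0.70 (SE 0.28) with an unadjusted p of 0.0265 and an adjusted p of 0.584 in limma. Without vehicle heart 5 the log2FC was −0.54 and the unadjusted p 0.0695 (limma adjusted p = 0.738), and the unadjusted p was also above 0.05 without vehicle heart 2 or MEKi heart 1 or 5. A gene model named *Gm49368* on the same strand covers 68.7% of the exon bases of *Itgam*, so fragments that fit both could have been left uncounted, and the level of *Itgam* is uncertain. *Itgal*, of lymphocytes, was at 1.24 FPKM in vehicle heart 5 and at most 0.754 FPKM in the others. *Itgax*, *Itgad* and *Itgae* were below the filter, and *Itgad* shares exon bases with the abundant muscle gene *Cox6a2* on the opposite strand.

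White blood cell markers had a like pattern. Summed over 13 leukocyte markers, FPKM ranged from 275 to 524 in the vehicle and from 203 to 270 in the MEKi group, with no overlap. The macrophage gene *Lyz2* made up between 76.1 and 90.0% of the sum, and without it the ranges were 31.6 to 125 FPKM and 22.7 to 43.5 FPKM. The mean was lower in MEKi hearts for 10 of the 13 markers. *Ptprc*, the pan-leukocyte marker CD45, was at most 1.14 FPKM, and the T cell marker *Cd3e* was at most 0.255 FPKM. The part of leukocyte content in the differences of *Itgam* and *Itgb2* was not tested. In bulk tissue, fewer cells of a type and less RNA per cell cannot be told apart.

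*Itga2b* and *Itgb3* encode the fibrinogen receptor of platelets. *Itga2b* was at 0.610, 0.496, 0.555, 1.40 and 5.93 FPKM in vehicle hearts and at 0.342, 0.662, 0.974, 0.636 and 0.268 FPKM in MEKi hearts. Vehicle heart 5 was 9.72-fold above the median of the other 9 hearts, and the other 4 vehicle hearts overlapped the MEKi hearts. In the same heart *Itgb3* was 3.99-fold, *Itgal* 2.47-fold, *Itgam* 2.39-fold and *Itgb2* 2.19-fold above the median of the others, beside 3.57-fold for the sum of 5 platelet markers and 1.94-fold for the leukocyte markers. Among the platelet markers *Pf4* was at 91.4, *Ppbp* at 34.3 and *Gp9* at 16.7 FPKM there, each the highest of any heart. *Gp1ba* did not follow, at 0.708 FPKM there against 1.12 in vehicle heart 1 and 1.08 in vehicle heart 4. *Gp1bb* was at 0 in vehicle heart 5. The log2FC of *Itga2b* was −0.93 (SE 0.59, limma adjusted p = 0.747) and −0.35 without vehicle heart 5 (limma adjusted p = 0.915), and that of *Itgb3* was −0.38 and −0.04. Vehicle heart 5 had the highest value of 10 of the 37 genes, more than any other heart. These 10 also included *Itga11*, *Itga2*, *Itgb8*, *Lama4* and *Lama1*. How often this heart was the highest over all genes is not given here. *Itgb7*, of gut-homing lymphocytes, was an opposite case. It was at 0.0762 FPKM in vehicle heart 3 and between 0.949 and 2.21 FPKM in the other 9 hearts, which gave it a log2FC of 0.65 with an SE of 0.57 (limma adjusted p = 0.820).

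**Figure D4:**
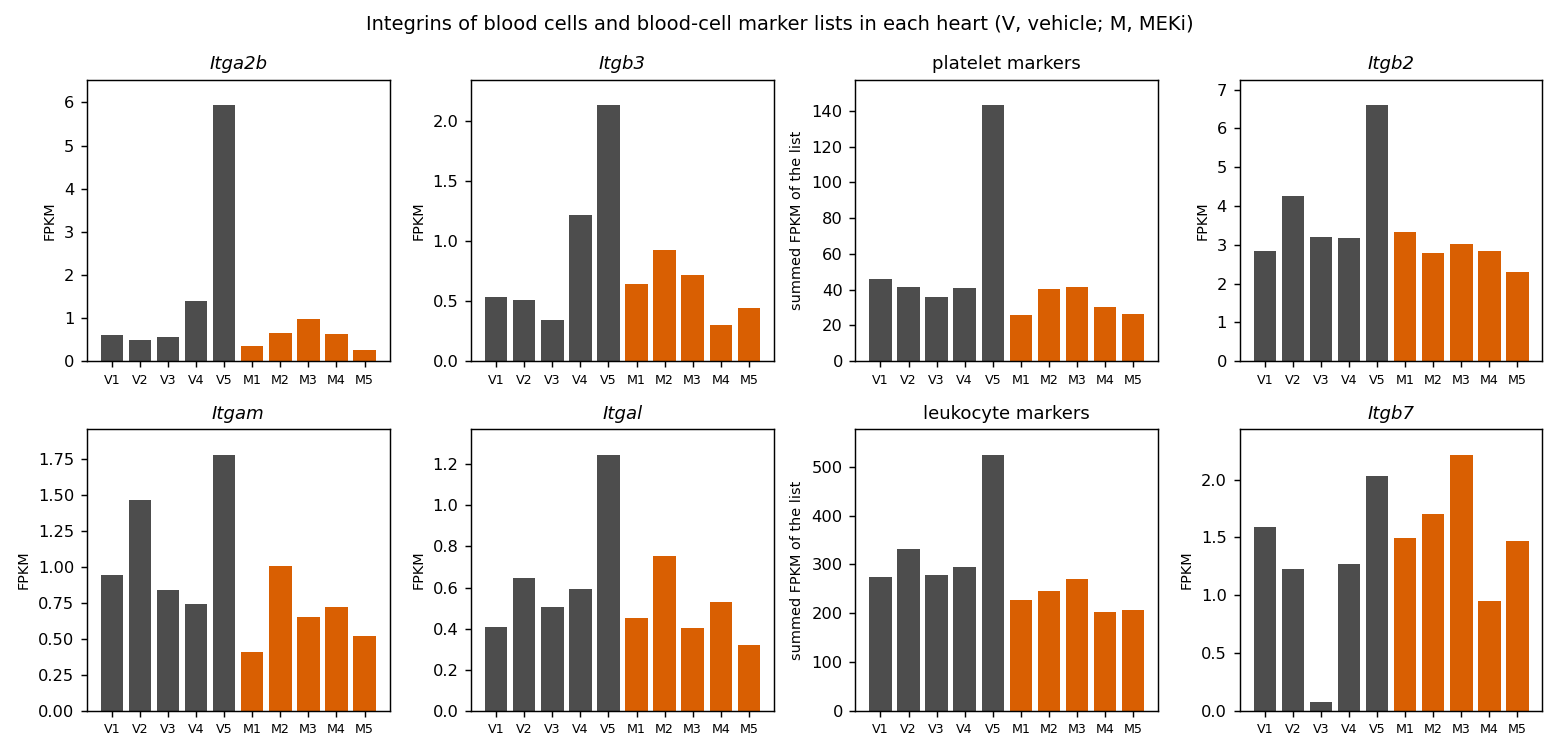
FPKM of 6 integrin genes of blood cells, and the summed FPKM of the platelet and leukocyte marker lists, in each vehicle (V1 to V5, grey) and MEKi (M1 to M5, orange) heart. Vehicle heart 5 has the tallest bar in each panel but that of *Itgb7*, whose single low bar is vehicle heart 3.

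The promoters of *Itgam* and *Itga2b*, which were both highest in vehicle heart 5, are shown because their genes stood for the myeloid and the platelet integrins. The sequences are RefSeq windows on GRCm38.p6 from 250 bases before to 50 bases after the start of the RefSeq gene model, on its own strand. For *Itgam* this start is that of the annotated span given above, while the annotated span of *Itga2b* (chromosome 11, 102453297 to 102470122, minus strand) begins further upstream, so most of its window lies inside the annotated gene. Capitals mark GAGGAA or its reverse complement TTCCTC, the core bound by PU.1 and other ETS factors of blood cells, searched on both strands.
*Itgam*, chr7:128062390-128062689, plus strand: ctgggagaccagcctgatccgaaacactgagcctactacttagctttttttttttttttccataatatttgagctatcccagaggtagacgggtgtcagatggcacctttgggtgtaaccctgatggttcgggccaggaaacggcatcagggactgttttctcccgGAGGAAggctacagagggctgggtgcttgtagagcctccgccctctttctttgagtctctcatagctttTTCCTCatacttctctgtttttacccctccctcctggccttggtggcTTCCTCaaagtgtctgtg
*Itga2b*, chr11:102469834-102470133, minus strand: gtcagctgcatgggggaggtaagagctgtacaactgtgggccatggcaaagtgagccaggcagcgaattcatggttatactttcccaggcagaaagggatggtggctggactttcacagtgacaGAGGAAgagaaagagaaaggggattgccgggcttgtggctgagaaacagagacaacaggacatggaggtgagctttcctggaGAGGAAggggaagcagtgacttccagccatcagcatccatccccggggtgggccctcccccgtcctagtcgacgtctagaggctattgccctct
The *Itgam* window held 3 matches and the *Itga2b* window 2. A window was at hand for 23 of the 37 genes, 26 windows in all, and 14 of these held a match (53.8%), against 28.3% of all 32851 promoter windows. *Itgb1*, *Lama5* and *Lamb2* were among the genes with a match. The GATA core GATAA was in neither of the windows shown, in 2 of the 26 member windows and in 25.4% of all windows. Member windows had a median GC content of 58.8% and 11 CpG pairs, beside 52.7% and 7 over all windows. Whether base composition had a part in these shares was not tested. A match of so few letters is a description of the sequence and not a binding site.

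Laminins sit in a sheet with other proteins, and these were compared in the same fit. Of 19 basement membrane partners 14 were tested, 11 with a negative and 3 with a positive fitted difference, and a median log2FC of −0.25 beside 0.01 over all genes. None passed the adjusted threshold, and 5 had an unadjusted p under 0.05, or 35.7% of those tested beside 7.62% of all genes. The partner lists were chosen with earlier results of these data known, so such shares are a description only. *Col4a1*, a chain of the main collagen IV network, was at 39.6, 46.9, 36.5, 35.8 and 38.5 FPKM in vehicle hearts and at 33.3, 26.9, 29.8, 32.3 and 30.7 FPKM in MEKi hearts. All MEKi hearts were below all vehicle hearts, which held for 0.849% of the genes tested (1.64% in either direction). Its log2FC was −0.36 (SE 0.10, limma adjusted p = 0.375). *Col4a2*, its partner chain, had a log2FC of −0.27 (SE 0.09, limma adjusted p = 0.519), and *Sparc*, a collagen-binding protein, one of −0.40 (SE 0.11, limma adjusted p = 0.401). *Col4a4* had a log2FC of −0.51. *Col4a5*, which lies on the X chromosome, had the opposite sign, with a log2FC of 0.23. On a TPM scale the list held 2 genes with an unadjusted p under 0.05. The perlecan gene *Hspg2* and the nidogen genes *Nid1* and *Nid2* had fitted differences of −0.31, −0.26 and −0.23, with unadjusted p values above 0.05.

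Receptors for laminin other than integrins had mostly positive fitted differences. Of 16 tested, 12 were positive and 4 negative, with a median log2FC of 0.11. None passed the adjusted threshold, and 2 (12.5%) had an unadjusted p under 0.05, beside 7.62% of all genes. The count was 1 without the 3 hearts of high atrial transcripts. *Bcam*, which binds the chain encoded by *Lama5*, was at 89.7 ± 11.3 and 106 ± 9.45 FPKM (SD, n = 5 each; log2FC 0.24, limma adjusted p = 0.626). *Dag1*, which encodes dystroglycan, the main other laminin receptor of muscle, was at 39.0 and 41.6 FPKM on average (log2FC 0.10).

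Of 33 proteins of the integrin adhesion complex 31 were tested, 21 with a negative and 10 with a positive fitted difference, and a median log2FC of −0.08. None passed the adjusted threshold, and 5 (16.1%) had an unadjusted p under 0.05, beside 7.62% of all genes. All 5 had a lower mean in MEKi hearts. The count was 3 on a TPM scale and 2 at a minimum average of 5 FPKM. *Fermt3*, the kindlin of blood cells, which activates *Itgb2* and *Itgb3* integrins, had a log2FC of −0.75 (SE 0.22, limma adjusted p = 0.440). Its highest value, 6.72 FPKM, was again in vehicle heart 5. *Tgfb1i1*, the paxillin relative Hic-5, was between 3.61 and 4.64 FPKM in vehicle hearts and between 2.79 and 3.56 FPKM in MEKi hearts, with no overlap (log2FC −0.33, SE 0.10, limma adjusted p = 0.463). Groups did not overlap for 1 of the 31 genes (3.23%), beside 1.64% of all genes tested. The log2FC values of *Zyx*, *Tns2* and *Ptk2b*, which encode zyxin, a tensin and a focal adhesion kinase relative, were −0.42, −0.28 and −0.52. Of 22 other integrin ligands 14 were tested, and *Cyr61*, a matricellular ligand, was the only one with an unadjusted p under 0.05 (log2FC 0.38, SE 0.14, limma adjusted p = 0.543). That is 7.14% of those tested, near the 7.62% of all genes in the same fit. This count of 1 was 3 with voom, 5 without the 3 hearts of high atrial transcripts and up to 4 with a single heart left out, the most without vehicle heart 3. The shares of all genes in these settings are not given here.

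**Figure D5:**
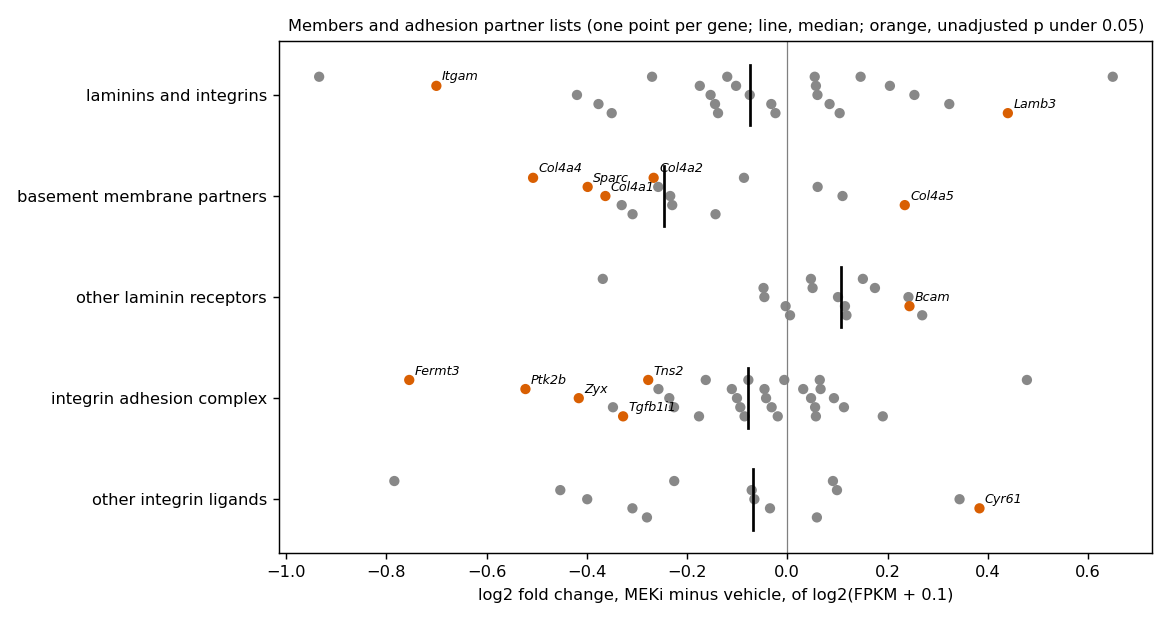
Log2 fold change (MEKi minus vehicle, on log2(FPKM + 0.1)) of the tested laminin and integrin genes and of the genes in 4 lists of adhesion partners (2 genes not drawn), with a line at the median of each whole list. Orange points have an unadjusted p under 0.05, none passed the adjusted threshold, and the line of the basement membrane partners lies at −0.25.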

How the data were processed

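Poly(A)-selected RNA from 10 hearts, 5 vehicle and 5 MEKi, was sequenced, and samples were grouped by the treatment and replicate number in their labels. The authors deposited FPKM per gene, and the submitters' processing notes name fastp, STAR 2.5, HTSeq 0.6.1 and the mm10 build. The annotation release and the strand setting of the counting are not given in the sources used here. The methods mention fixation of hearts in formalin, and do not say which part of a heart gave RNA. All 37 laminin and integrin genes have the coordinates of GENCODE M21. FPKM multiplied by gene length gave whole fragments for 100% of values in each heart (tolerance 0.01 fragments), and these were used for depth and for voom. The voom fit took the library sizes implied by the FPKM.

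Genes averaging 0.5 FPKM or more were analysed as log2(FPKM + 0.1) in limma 3.58.1 under R 4.3.3 (lmFit, eBayes with a trend), two-sided, with Benjamini-Hochberg adjustment over all 12602 genes and a threshold of 0.05. Fold changes on this scale understate those of low genes. The p-values set the difference between the group means against the spread between hearts within the groups. Summaries used Python 3.11.15, numpy 2.4.6 and pandas 2.3.3. The fit was tested on simulated data with an equal dispersion for every gene. At the adjusted threshold it recovered 14% of 200 genes changed 1.5-fold and 89.5% of 200 changed 2-fold. Most 1.5-fold changes were thus missed in the simulation.

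The members and gene lists were chosen with earlier results of these data known. Named with values in each heart are the 3 genes of highest mean in each family and members with an unadjusted p under 0.05 or groups that do not overlap. *Itga2b* was added after its values were seen. The values of 2 genes in these lists are not reported here. Alternatives were pseudocounts of 1 and 0.01, all genes above 0, a minimum average of 5 FPKM, TPM in place of FPKM, quantile normalization, eBayes without a trend or robust, array weights, the replicate number as a block, X, Y and mitochondrial genes left out, protein-coding genes only, voom, and leaving out each heart. Leaving out the 3 hearts with high atrial transcripts was chosen after seeing the data.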

Additional observations from a re-analysis of the deposited data

Results flagged for a closer look

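Within a group of 5 hearts, 1 value can lie far from the rest, and 7 of 78 groups of values examined did so by Dixon's criterion, where chance alone gives about 3.9. The marker sums among them were those of leukocytes, platelets, endothelial cells and fibroblasts only. Of the 7, 5 concerned vehicle heart 5. There *Itga2b* was at 5.93 FPKM, against 0.496 to 1.40 FPKM in the other vehicle hearts, and *Itgal* was at 1.24 FPKM, against 0.407 to 0.644. *Itga2* was at 0.202 FPKM, against 0.0403 to 0.0690. The leukocyte marker sum of vehicle heart 5 was 524 FPKM, against 275 to 331, and its platelet marker sum was 143 FPKM, against 35.9 to 46.0. *Lamb2* in vehicle heart 1 was at 62.3 FPKM, against 37.3 to 43.4 in the other vehicle hearts. The endothelial marker sum of MEKi heart 5 was 144 FPKM, against 175 to 183 in the other MEKi hearts. Marker lists that were not examined also had values far from the rest. The atrial sum of MEKi heart 2 was 740 FPKM, against 17.5 to 23.8 in the other MEKi hearts. The cardiomyocyte sum of MEKi heart 5 was 9858 FPKM, against 12610 to 13638 in the other MEKi hearts.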

How the results depend on the processing

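No laminin or integrin gene passed the adjusted threshold under any of the 24 alternatives, voom included, and 17 of the 27 kept the sign of their difference under all of them (25 of 632 fitted values reversed). The count of members with an unadjusted p under 0.05, 2 as reported, was 0 at a mean of at least 5 FPKM, 4 with voom, 1 without the 3 hearts of high atrial transcripts (chosen after seeing the data) and from 0 (without vehicle heart 5) to 6 (without vehicle heart 1, *Itga1*, *Itgam*, *Itgb2*, *Lamb2*, *Lamb3* and *Lamc1*) with a heart left out. Over all genes, the 10 with an adjusted p under 0.05 became 2 at a mean of at least 5 FPKM, 18 with array weights, 0 without X, Y and mitochondrial genes, 5 without the atrial-high hearts and from 5 to 13 with a heart left out, and the 960 with an unadjusted p under 0.05 became 407 at 5 FPKM. Basement membrane partners with an unadjusted p under 0.05, 5 as reported, were 3 at 5 FPKM and 2 on the TPM scale. Other laminin receptors, 2 as reported, were 1 without a trend and without the atrial-high hearts, and from 1 to 3 with a heart left out. Adhesion complex genes, 5 as reported, were 2 at 5 FPKM and 3 on the TPM scale. Other ligands, 1 as reported, were 2 with array weights, 3 with voom, 5 without the atrial-high hearts and from 1 to 4 with a heart left out. Except at 5 FPKM, the counts of all genes with an unadjusted p under 0.05 in these settings are not given here. A change in a count can therefore not be read as particular to the members or to a list.

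Some signs turned. Without the atrial-high hearts the log2 fold change was −0.0604 for *Itgb6*, 0.12 for *Itgb3*, 0.0793 for *Itga6*, −0.0717 for *Itga7* and 0.0400 for *Itga3*. On the TPM scale, which moved the median of all genes from 0.01 to 0.09 and that of the members from −0.07 to 0.0023, it was 0.0023 for *Lama5*, 0.0539 for *Itga9* and 0.0422 for *Itga3*. With array weights it was 0.0418 for *Lama5* and −0.0343 for *Itga8*. With a heart left out it ran from −0.00951 to 0.13 for *Itgb1*, from −0.00984 to 0.15 for *Itga7*, from −0.17 to 0.10 for *Lama5*, from −0.14 to 0.29 for *Itga8*, from −0.0796 to 0.0225 for *Itga9*, from −0.0827 to 0.20 for *Itgb4* and from −0.12 to 0.0551 for *Itga3*. Apart from smaller sets of genes or hearts, the causes were not tested.

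The labels do not say whether the replicate numbers pair the hearts. Deviations of hearts with the same number correlated between −0.15 and −0.02, and 0 hearts correlated best with their own number. These correlations cannot show whether the animals were paired. With the replicate number as a block, 1 member had an unadjusted p under 0.05, 4 genes of all had an adjusted p under 0.05, and 3 adhesion complex genes had an unadjusted p under 0.05. Levels under about 0.1 FPKM, such as *Lamc3*, rest on few fragments, and counting error limits them.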
